A study of Mus musculus with 1 sample.

Results

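Leukocyte integrins and the selectin ligand PSGL-1 are the surface proteins by which blood cells and their progenitors hold to vessel walls, stroma and each other. The 9 genes described here were chosen by name as adhesion genes, by a rule that does not use their levels: *Itgal*, *Itgam*, *Itgax*, *Itga4* and *Itga5* for alpha subunits, *Itgb1*, *Itgb2* and *Itgb7* for beta subunits, and *Selplg* for PSGL-1. They are 9 of the 54532 mouse genes listed, and each symbol matched 1 Ensembl identifier. The data were 1 RNA-seq library, that of c-kit+ BM cells sorted from Ctrl mice of the C57BL/6 strain with a wild type genotype. The study set such cells beside those of *Gadd45g*-deficient mice with myeloproliferative neoplasm (MPN), which were not analysed here, so no difference between conditions is given. The label of the sample adds that the cells lacked lineage markers and Sca-1, whereas the methods for RNA-seq name c-kit alone. The study used mice of both sexes throughout, but the age, the sex and the number of the Ctrl mice in this library are not given in the sources used here. With 1 library there are no replicates, so no test was made and no spread between mice is known.

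An integrin is a pair of 1 alpha and 1 beta subunit, and neither reaches the cell surface well without the other. The beta2 subunit pairs with alphaL to form LFA-1, with alphaM to form Mac-1 and with alphaX to form the CD11c integrin, which bind ICAMs, complement fragments and fibrinogen on the way out of the vessel and during phagocytosis. The alpha4 subunit pairs with beta1 or beta7 and binds VCAM-1, fibronectin and MAdCAM-1, and in bone marrow the alpha4 and beta1 pair helps to keep progenitors in place. The alpha5 and beta1 pair is a fibronectin receptor. PSGL-1 carries the sugars that selectins bind during rolling. Integrins sit bent and inactive until talin and kindlin, recruited through the small GTPase RAP1, bind the tail of the beta subunit.

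Stretches of promoter were shown for 3 members, because the first 2 belong to neighbouring genes with very unequal levels and the third to a subunit found on most cell types. Sequences were taken from RefSeq on GRCm38.p6, where 6 of the 9 members were matched (*Itgam*, *Itgax*, *Itga4*, *Itga5*, *Itgb1* and *Itgb7*). Each is the 250 bases before the RefSeq start site, read 5′ to 3′ along the gene. Capitals mark GAGGAA or its reverse complement TTCCTC, a core that the myeloid factor PU.1 is known to bind.

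*Itgam*, chr7:128062390-128062639, forward strand: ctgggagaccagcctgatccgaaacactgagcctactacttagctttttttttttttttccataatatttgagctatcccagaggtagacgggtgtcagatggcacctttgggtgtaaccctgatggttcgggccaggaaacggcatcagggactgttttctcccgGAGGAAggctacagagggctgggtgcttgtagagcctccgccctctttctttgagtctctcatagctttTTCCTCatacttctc

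*Itgax*, chr7:128129300-128129549, forward strand: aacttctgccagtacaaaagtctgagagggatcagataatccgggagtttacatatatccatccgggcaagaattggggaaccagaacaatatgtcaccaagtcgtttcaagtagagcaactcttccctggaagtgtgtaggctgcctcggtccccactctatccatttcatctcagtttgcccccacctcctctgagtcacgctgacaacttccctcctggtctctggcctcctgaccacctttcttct

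*Itgb1*, chr8:128685404-128685653, forward strand: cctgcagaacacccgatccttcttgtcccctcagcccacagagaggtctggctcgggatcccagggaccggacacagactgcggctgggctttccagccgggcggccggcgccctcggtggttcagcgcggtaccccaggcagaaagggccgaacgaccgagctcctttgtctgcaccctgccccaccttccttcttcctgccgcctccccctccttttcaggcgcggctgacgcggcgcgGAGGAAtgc

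The *Itgam* stretch held the motif 2 times, beginning 84 and 15 bases before the start site, and *Itgb1* held it once, 9 bases before the start. *Itgax*, *Itga4* and *Itgb7* had no match, and *Itga5* had 1. Thus 3 of the 6 stretches held the motif, which 23.3% of 32851 RefSeq stretches of the same length hold. Of 4 other motifs searched on both strands, GGGCGG was in *Itgam*, *Itga4*, *Itga5* and *Itgb1* and in 32.7% of all stretches, and AGATAA was in *Itgax* alone and in 9.99% of all. TATAAA and TTGCNNAA were in none of the 6, against 12.4% and 9.56% of all. The *Itgb1* stretch had 68.0% G and C and 21 CpG dinucleotides, more CpGs than 83.7% of all stretches. *Itgam* and *Itgax* were close to the middle of all promoters, with 6 and 5 CpGs against a median of 6. A match of letters says nothing about whether a factor was bound in these cells.

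All 9 genes were detected at 1 FPKM or more, a level in fragments that is scaled to the exon length of the gene and to the depth of the library. Of all genes listed, 22.2% reached this level, and of the protein-coding genes 46.8% did. At 10 FPKM or more there were 7 of the 9, against 21.2% of protein-coding genes. The median of the members was 55.3 FPKM, where the median of protein-coding genes above 0 was 4.22 FPKM. Since the members were chosen as known leukocyte genes, these shares are a description.

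The beta2 subunit gene *Itgb2* (ENSMUSG00000000290, chromosome 10, 77530252 to 77565708, forward strand) was the highest member. Its level was 319 FPKM from 15364 recovered fragments, with a 95% counting interval of 314 to 324 FPKM. It ranked 116 among 21995 protein-coding genes, and it held 45.1% of the summed FPKM of the 9 genes. These intervals are exact Poisson intervals on the recovered fragments, and they leave out the difference between mice.

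*Selplg* (ENSMUSG00000048163, chromosome 5, 113818536 to 113832644, reverse strand) came next at 103 FPKM (100.4 to 105 FPKM). The level of *Itgb2* was 3.10 times as high in FPKM (interval of the ratio, 3.02 to 3.19), but 1.73 times per base of the longest transcript and 1.32 times per coding base, since the exons of *Selplg* cover 3.08 times its coding length. On the same scales *Selplg* was 2.31 and 3.48 times *Itgb7*. *Itgb7* (ENSMUSG00000001281, chromosome 15, 102215995 to 102231944, reverse strand), whose product homes cells to gut when paired with alpha4, had 79.7 FPKM (77.0 to 82.4 FPKM). *Itgal* (ENSMUSG00000030830, chromosome 7, 127296260 to 127335138, forward strand) had 64.0 FPKM (62.4 to 65.5 FPKM). In FPKM each of these 4 genes was higher than the next beyond counting error, by 1.29 times for *Selplg* over *Itgb7* and by 1.25 times for *Itgb7* over *Itgal*. The order of *Itgb7* and *Itgal* turned when fragments were divided by coding bases, where *Itgb7* was 0.821 times *Itgal* (0.788 to 0.855), and also when they were not divided by length, where it was 0.525 times.

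*Itgb1* (ENSMUSG00000025809, chromosome 8, 128685654 to 128733200, forward strand) had 55.3 FPKM (53.5 to 57.1 FPKM). *Itgam* (ENSMUSG00000030786, chromosome 7, 128062640 to 128118491, forward strand), which encodes CD11b, had 52.9 FPKM (51.3 to 54.5 FPKM). Of the neighbours in the order of FPKM this was the one pair that could not be separated, with a ratio of 1.04 and an interval from 0.9991 to 1.09. *Itga4* (ENSMUSG00000027009, chromosome 2, 79255426 to 79333123, forward strand) was lower at 21.8 FPKM (21.2 to 22.5 FPKM). *Itgam* was 2.42 times *Itga4* in FPKM, but 0.749 times per coding base and 7.11 times per exon base that no other gene covers.

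The lowest members were *Itga5* and *Itgax*. *Itga5* (ENSMUSG00000000555, chromosome 15, 103344286 to 103366763, reverse strand) had 6.72 FPKM from 523 fragments (6.15 to 7.32 FPKM). *Itgax* (ENSMUSG00000030789, chromosome 7, 128129547 to 128150657, forward strand), which encodes CD11c of dendritic cells and some macrophages, had 4.80 FPKM from 364 fragments (4.32 to 5.32 FPKM). In FPKM both were near *Kit*, the gene of the sorted receptor, at 7.17 FPKM, and near the median of protein-coding genes above 0. Divided by coding bases, *Kit* would have 21.7, against 10.4 for *Itga5* and 6.58 for *Itgax*. From the highest to the lowest member the levels differed 66.4 times (interval, 59.9 to 73.7).

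**Figure D1:**
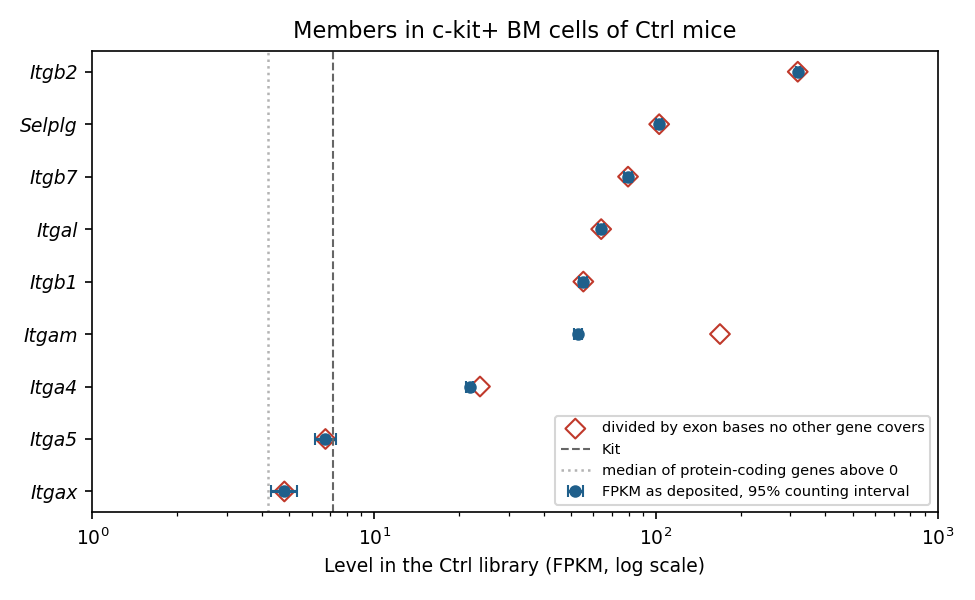
Level of the 9 members in the Ctrl library, in FPKM on a log axis. Filled points are the deposited FPKM with 95% counting intervals, open diamonds the fragments divided by the exon bases that no other gene covers, the dashed line *Kit* at 7.17 FPKM and the dotted line the median of protein-coding genes above 0, 4.22 FPKM. The diamonds lie on the points except for *Itgam*, which moves from 52.9 to 169, and *Itga4*, which moves from 21.8 to 23.8.

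The level of *Itgam* needs care, because most of its exon sequence belongs to a second annotated gene as well. *Gm49368* (ENSMUSG00000108596, chromosome 7, 128062683 to 128128160) begins 43 bases inside *Itgam*, runs on the same strand past its end, and stops short of *Itgax*. It covers 3450 of the 5024 exon bases of *Itgam*, or 68.7%, and 25 of the 30 exon blocks of *Itgam* lie wholly within its exons. *Gm49368* itself was listed at 0.145 FPKM from 11 fragments, although it shares 79.1% of its own exon bases with other genes. None of the other 8 members shared exon bases with another gene except *Itga4*, for which the share was 8.04%, with *Cerkl*.

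The submitters' processing notes name featureCounts 1.5.0-p3, a counter that by default assigns no gene to a fragment lying on exons of several genes. Whether this default was used is not given in the sources used here, and its part in the level of *Itgam* was not tested. Divided by the 1574 exon bases that no other gene covers, the 4196 fragments of *Itgam* would give 169 in place of 52.9, which is 3.06 times *Itgb1* (interval, 2.92 to 3.19) and 1.64 times *Selplg* (1.58 to 1.71). Of these 1574 bases, 1430 lie beyond the last shared base, at the 3′ end of the gene, so the second value rests on how evenly fragments cover that end. The deposited value therefore places *Itgam* sixth among the members and the other value places it second, behind *Itgb2* in both cases.

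**Figure D2:**
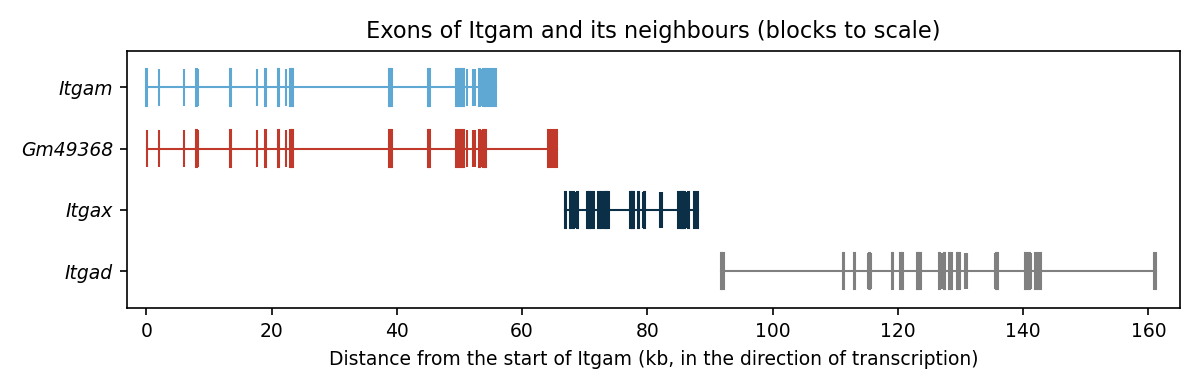
Exon blocks of *Itgam*, *Gm49368*, *Itgax* and *Itgad*, drawn to scale in kb from the start of *Itgam* in the direction of transcription. The blocks of *Gm49368* line up with those of *Itgam* except for its last block, which lies between *Itgam* and *Itgax*.

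The 3 beta2 partner genes among the members lie on chromosome 7. *Itgal* is 728 kb from *Itgam*, while 11.1 kb separate *Itgam* from *Itgax* and 3.72 kb separate *Itgax* from *Itgad*, the gene of a further beta2 partner. In spite of that closeness, *Itgam* was 11.02 times *Itgax* in FPKM (interval, 9.90 to 12.3), and 35.2 times per unshared base (31.6 to 39.2). *Itgal* was 13.3 times *Itgax* (11.99 to 14.8). *Itgad* had 1.63 FPKM from 116 fragments (1.35 to 1.95 FPKM). Reads can be hard to place between the last pair, since 384 of the 4790 stretches of 50 bases in *Itgax* transcripts, or 8.02%, also occur in *Itgad*.

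*Itgal* was 1.21 times *Itgam* in FPKM (interval, 1.16 to 1.26). Per unshared base the order of this pair turned, with *Itgam* 2.64 times *Itgal* (2.54 to 2.74). Which of LFA-1 and Mac-1 had more alpha subunit RNA in these cells thus depended on how the shared exons of *Itgam* are treated.

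The beta2 gene exceeded the sum of its partners. *Itgal*, *Itgam* and *Itgax* added up to 122 FPKM, 0.382 times *Itgb2* (interval, 0.372 to 0.391), and with *Itgad* the ratio was 0.387. Per unshared base it was 0.745 (0.725 to 0.766), still below 1. *Itgal*, *Itgam*, *Itgax* and *Itgb2* together held 62.3% of the summed FPKM of the 9 members (61.9% to 62.8%).

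*Itgb2* was 5.77 times *Itgb1* (interval, 5.56 to 5.98). *Itgb7* was 1.44 times *Itgb1* in FPKM (1.38 to 1.51), but this difference was lost per coding base, at 0.995 times (0.950 to 1.04), and without division by length, at 0.978 times (0.933 to 1.02). *Itga4* and *Itga5* added up to 28.6 FPKM, 0.517 times *Itgb1* (0.494 to 0.540). With all 12 alpha genes whose products are known to pair with beta1, the sum was 37.8 FPKM and the ratio 0.683 (0.655 to 0.712). *Itga4* is shared between *Itgb1* and *Itgb7*, which added up to 135 FPKM, and it amounted to 0.162 times that sum. *Itgae*, the second partner of beta7, had 0.387 FPKM from 28 fragments.

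Between the alpha partners of beta1 among the members, *Itga4* was 3.25 times *Itga5* in FPKM (2.97 to 3.56) and 9.46 times per coding base (8.64 to 10.4). The level of *Itga4* is the one most lowered by division by gene length: its exons cover 13978 bases, 4.51 times the 3096 bases that code for protein, where the same quotient was 1.14 for *Itgb7* and 1.65 for *Itgb1*. Divided by coding bases alone, *Itga4* would have 98.6, *Itgb1* 91.5 and *Itgb7* 91.1 on the same scale. The excess of beta over alpha seen in FPKM then held neither for *Itgb1* nor for *Itgb7* when all of *Itga4* was set against each alone. *Itga4* and *Itga5* then added up to 1.19 times *Itgb1* (1.14 to 1.24), and *Itga4* and *Itgae* to 1.09 times *Itgb7* (1.04 to 1.14), where the FPKM ratio of the latter was 0.279. With all 12 alpha partners the ratio to *Itgb1* was 1.49 per coding base. These ratios count *Itga4* in full for each beta gene. Set against the sum of *Itgb1* and *Itgb7*, *Itga4* was 0.540 times as high, so it stayed below the 2 beta genes together. Over all integrin genes the ratio of alpha to beta was 0.435 per coding base.

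**Figure D3:**
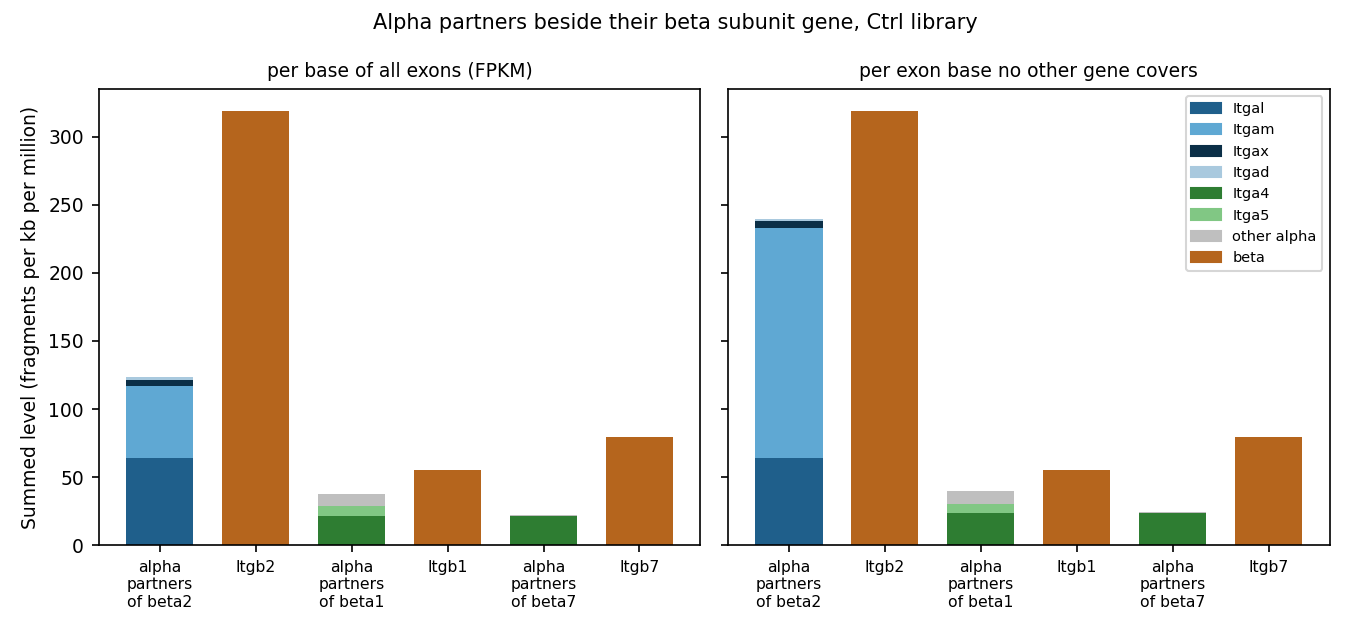
Summed level of the alpha partners of beta2, beta1 and beta7 beside the level of each beta gene, in FPKM at left and per exon base that no other gene covers at right. Bars start at 0, *Itga4* stands in the partner bars of both beta1 and beta7, and there are no error bars since the sums come from 1 library. The partner bar of beta2 rises from 123 FPKM at left, mostly through *Itgam*, and stays below *Itgb2* in both panels.

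Among all 27 integrin genes of the mouse that were looked up, 18 alpha and 9 beta, the 8 member genes held 82.4% of the summed FPKM. Of protein-coding genes, 46.8% reached 1 FPKM and 21.2% reached 10 FPKM. Of the other 19 integrin genes, 8 (42.1%) reached 1 FPKM and 2 reached 10 FPKM. The highest was *Itgb2l*, the gene of the beta2-like protein Pactolus known from mouse neutrophils, with 88.9 FPKM from 6068 fragments (86.7 to 91.2 FPKM). It lay between *Selplg* and *Itgb7*, and *Itgb2* was 3.59 times as high in FPKM (interval, 3.48 to 3.70). The ratio was 2.39 per base of the longest transcript, 2.66 per coding base and 2.53 without division by length. No stretch of 50 bases in *Itgb2l* transcripts occurred in a transcript of another gene, so no such stretch is shared with *Itgb2*.

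The platelet integrin genes followed, *Itgb3* with 12.8 FPKM and *Itga2b*, which encodes CD41, with 9.73 FPKM. *Itgb5* had 5.92 FPKM, *Itga6*, a laminin receptor subunit, 4.001 FPKM, *Itgav* 1.89 FPKM and *Itga1*, a collagen receptor subunit, 1.05 FPKM. The beta genes of epithelial integrins were close to the floor, with 0.0452 FPKM from 5 fragments for *Itgb4* and 0.00891 FPKM from 1 fragment for *Itgb6*. *Itga7*, of the muscle laminin receptor, had 0.0548 FPKM and was the lowest alpha gene. Summed over the family, the alpha genes had 171 FPKM and the beta genes 562 FPKM, a ratio of 0.305 (interval, 0.299 to 0.311) that was 0.516 per unshared base and 0.632 without division by length.

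**Figure D4:**
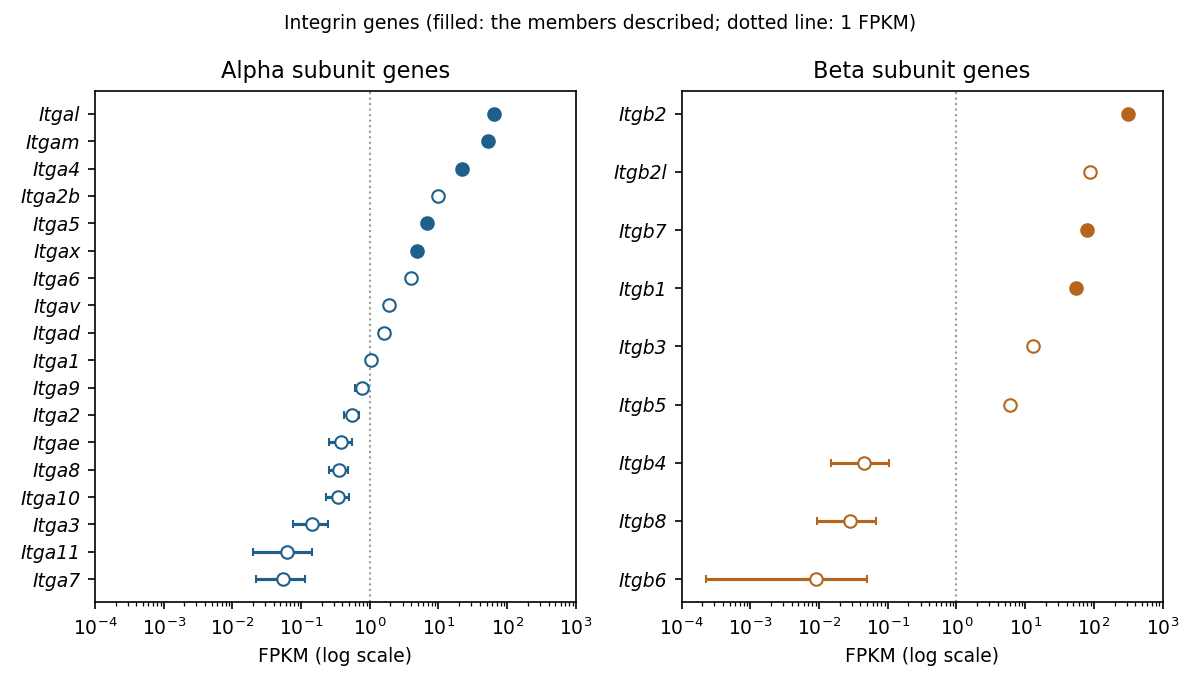
Level of 18 integrin alpha genes (left) and 9 integrin beta genes (right) in the Ctrl library, in FPKM on a log axis with 95% counting intervals. Filled points are members and open points the other genes. Among the beta genes the open point of *Itgb2l*, at 88.9 FPKM, stands between *Itgb2* and *Itgb7*.

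Genes whose products act on leukocyte integrins were measured beside them. The list was drawn up as activators and adaptors. It also holds *Sharpin*, at 16.2 FPKM, and *Itgb1bp1*, at 6.68 FPKM, whose products are known to restrain integrins. Of the 19 genes, 15 reached 1 FPKM, or 78.9% against 46.8% of protein-coding genes. The median of the list was 19.7 FPKM. *Rap1b*, a small GTPase upstream of talin, had 139 FPKM, *Fermt3*, the kindlin of blood cells, 136 FPKM and *Tln1*, the talin of blood cells, 135 FPKM. *Rap1a* had 67.0 FPKM. The paralogs known from other tissues were low, with 0.0483 FPKM for *Tln2* from 14 fragments and 0.110 FPKM for *Fermt2* from 9 fragments. *Fermt1*, the kindlin of epithelia, was listed at 0, which allows up to 0.0334 FPKM by the level that 3 fragments would give.

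Of 12 genes for integrin ligands, 6 reached 1 FPKM, which is near the share of 46.8% among protein-coding genes. The median of the list was 1.74 FPKM. *Fn1*, fibronectin, was the highest with 85.6 FPKM, 12.7 times its receptor subunit *Itga5* (interval, 11.7 to 13.9). *Icam2*, a ligand of LFA-1, had 16.3 FPKM, *Vcam1*, a ligand of the alpha4 and beta1 pair, 14.6 FPKM and *Thy1* 12.6 FPKM. *Madcam1*, the ligand of the alpha4 and beta7 pair on gut vessels, was listed at 0, which allows up to 0.132 FPKM. *Icam4* was also listed at 0, but all of its exon bases are covered by a gene on the other strand.

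On the selectin side, the genes of the selectins of platelets and vessels were low beside *Selplg*, with 1.15 FPKM for *Selp* and 0.370 FPKM for *Sele*. Of 8 other genes whose products can carry selectin ligands, 5 reached 1 FPKM, or 62.5% against 46.8% of protein-coding genes. *Cd24a* was far above the members at 1016 FPKM, *Spn*, which encodes CD43, had 60.6 FPKM, *Cd44* 57.4 FPKM and *Glg1*, which encodes the E-selectin ligand ESL-1, 25.1 FPKM. *Cd24a* is also abundant in red cell precursors and B cells. *Selplg* was 1.79 times *Cd44* in FPKM (1.73 to 1.85), 2.74 times per base of the longest transcript and 1.128 times without division by length. *Emcn*, an endothelial sialomucin, had 0.0351 FPKM from 3 fragments, and *Glycam1*, of lymph node vessels, was listed at 0, which allows up to 0.0891 FPKM.

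PSGL-1 binds selectins after its sugars are built and its tyrosines sulfated. Of 14 genes for enzymes that build selectin ligands, those of these steps among them, 12 reached 1 FPKM, or 85.7%. Of protein-coding genes 46.8% did, and the median of the list was 14.2 FPKM. *Galnt1*, which starts O-glycans, had 39.4 FPKM, *B4galt1* 36.2 FPKM, *Tpst2*, a tyrosine sulfotransferase, 28.8 FPKM and *C1galt1c1*, the chaperone of the core 1 enzyme, 23.1 FPKM. The genes of the list below 1 FPKM were the sulfotransferases *Chst2*, at 0.225 FPKM, and *Chst4*, of lymph node vessels. *Chst4* was listed at 0, which allows up to 0.0833 FPKM. Within 2 pairs of related enzymes, *Tpst2* was 5.21 times *Tpst1* (4.55 to 5.98), and the fucosyltransferase *Fut7* was 2.17 times *Fut4* in FPKM (1.84 to 2.56) and 1.38 times per coding base (1.17 to 1.63). These 2 pairs were picked after the values had been seen.

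**Figure D5:**
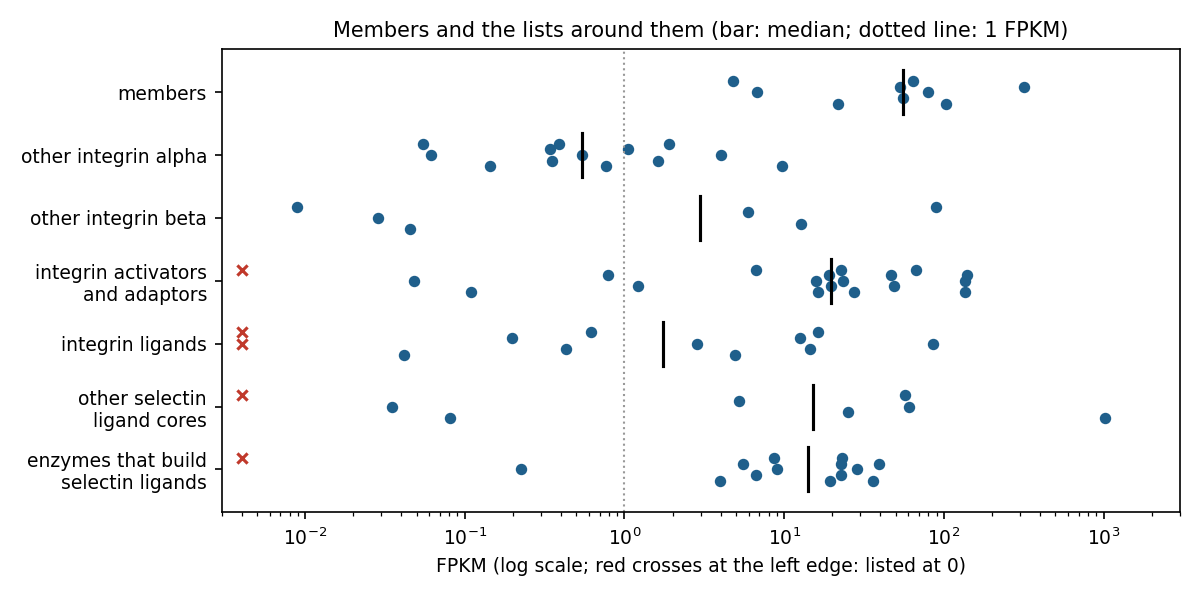
Level of the 9 members and of the genes in 6 lists around them, in FPKM on a log axis. Each point is 1 gene, vertical bars are medians, the dotted line is 1 FPKM and red crosses at the left edge are genes listed at 0. The median was 55.3 FPKM for the members, 19.7 FPKM for the list labelled integrin activators and adaptors and 0.542 FPKM for the other alpha genes.

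Markers of many cell types were detected in the library, and in bulk RNA a smaller number of cells of a type and less RNA per cell cannot be told apart. Of all protein-coding genes, 46.8% reached 1 FPKM. All 9 neutrophil markers reached 1 FPKM, from 109 to 26677 FPKM, and together they held 11.9% of the summed FPKM. All 6 markers of monocytes and macrophages did, from 7.37 to 289 FPKM and 0.108% of the sum, and so did all 6 B cell markers, from 4.53 to 173 FPKM and 0.0893% of the sum. The 7 T cell markers ranged from 2.62 to 15.5 FPKM and the 5 NK cell markers from 1.31 to 7.998 FPKM. Of the 6 dendritic cell markers 5 reached 1 FPKM, from 0.142 to 17.3 FPKM. The 6 erythroid markers ranged from 141 to 25466 FPKM and held 9.93% of the sum. The 6 basophil, mast cell and eosinophil markers ranged from 16.8 to 2766 FPKM and held 0.763%. The 6 GMP markers ranged from 65.4 to 781 FPKM and held 0.474%. The 6 megakaryocyte and platelet markers ranged from 1.28 to 38.7 FPKM and held 0.0205%. None of the 5 HSC markers reached 1 FPKM, and of 6 endothelial and stromal markers 4 did, the highest being *Pecam1* at 10.6 FPKM. No marker was listed at 0, and the part of each cell type in the levels of the integrin genes was not tested.

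*Itgam* may also bear on the sort, because the lineage antibody mixture listed by the study includes a clone against CD11b. The label says that lineage markers were lacking, but the methods for RNA-seq name c-kit alone. Whether the mixture was used on these cells is therefore not known. The RNA of *Itgam* was 7.38 times that of *Kit* in FPKM (interval, 6.89 to 7.91), 23.6 times per unshared base (22.001 to 25.2) and 3.40 times per coding base (3.17 to 3.64). For Sca-1, the *Ly6a* level was 28.5 FPKM. These are levels of RNA, and the proteins on the cells were not measured in these data.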

How the data were processed

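The deposited values are FPKM, 1 for each of 54532 Ensembl genes. The submitters' processing notes name HISAT2 2.0.5, featureCounts 1.5.0-p3 and the build mm10, while the annotation, the strandedness and the counting options are not given in the sources used here.

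Names, positions and exon lengths came from GENCODE M21 on GRCm38, which lacks 37 of the identifiers. FPKM times exon length was a whole multiple of 1 common step, within 0.01, for 96.4% of 21313 genes above 0, the 9 members included, where chance would give 2%. The rounded multiples were read as fragments, 15899824 in the genes with whole multiples and 17113323 with those of the other genes, whose rounded values are no recovered counts. The step itself corresponds to a library of 15783891 fragments, fewer than the 15899824 read from the genes with whole multiples. The cause of this mismatch was not tested. Fragments of whole multiples gave 95% intervals, exact Poisson for levels and by the delta method for ratios, which cover counting error only. The recovery of fragments and the intervals of ratios were tested on simulated data. These were Poisson counts with their own sum as the total. They therefore cannot show whether the mismatch matters or whether counting error is Poisson in this library. A gene listed at 0 was given the level of 3 fragments as its limit. No statistical test was possible with 1 library.

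The members and lists were chosen with earlier results of these data known, although the rule that names the members uses no levels. The text names all members and, of each list, the 4 highest genes, the lowest, those at 0 and partners of members. Paralogs and further genes named beside them were chosen after their values were seen. A result for 1 listed gene is not reported here. The alternatives were other minimums, totals and backgrounds, and fragments not divided by length. Division by the longest transcript, by coding length or by unshared exon bases was added after seeing the data. Shared sequence was counted in stretches of 50 bases over GENCODE transcripts. Promoters came from RefSeq on GRCm38.p6. The scripts ran in Python 3.11.15, with scipy 1.17.1 for intervals, numpy 2.4.6 and pandas 2.3.3 for the tables, and matplotlib 3.10.9 for plots.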

Additional observations from a re-analysis of the deposited data

How the results depend on the processing

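No paired analysis was possible because a single library was analysed. All 9 members were detected at 0.1 FPKM as well, and 7 at 10 FPKM. Of the other 19 integrin genes, 8 at 1 FPKM became 14 at 0.1 FPKM and 2 at 10 FPKM, by construction. The median of the members, 55.3 FPKM, was 60.3 without the 10 most abundant genes in the total, 56.4 without mitochondrial genes and 129 after conversion to TPM, each a factor common to all genes. The values of 60.3 and 56.4 took the sum of 17113323 rounded fragments as the total, where the step gives 15783891. A smaller total would make both changes larger. Their median percentile, 95.2 among genes above 0, was 93.9 among protein-coding genes and 98.1 among all genes listed.

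Gene length moved the comparisons between genes. For fragments not divided by length, the longest transcript, the coding length and unshared exon bases, in that order, the ratio of *Itgal*, *Itgam* and *Itgax* to *Itgb2*, 0.382 in FPKM, was 0.728, 0.436, 0.458 and 0.745. That of *Itga4* and *Itga5* to *Itgb1*, 0.517, was 1.5004, 0.656, 1.19 and 0.551, so it passed 1 under the first and the third. That of *Itgb7* to *Itgb1*, 1.44, was 0.978, 1.39, 0.995 and 1.44. The share of *Itgal*, *Itgam*, *Itgax* and *Itgb2* in the members' sum, 62.3%, was 57.9%, 56.0%, 50.02% and 67.5%. Without division by length, *Itgal* was 1.86 times *Itgb1* in place of 1.16, *Itgb2* 42.2 times *Itgax* in place of 66.4, *Itga5* 0.0331 times *Fn1* in place of 0.0785, and *Itgb1* 0.849 times *Itgam* in place of 1.04, by the lengths themselves. In all 5 orders *Itgb2* was highest and *Itgax* lowest, with *Itga5* next to last. Depth limits the genes with few fragments, such as *Itgb6*, and variation between mice was not measured.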

Other observations

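The exon overlap seen for *Itgam* was also looked at in other adhesion genes and over the whole library, after the values had been seen. *Ilk*, whose product links beta1 tails to actin and is found in most cells, was listed at 0.785 FPKM from 34 fragments, and 89.7% of its exon bases are covered by exons of genes on the other strand, among them *Taf10*. Of 15460 protein-coding genes with no exon base shared with another gene, 37.9% were listed at 0, and of 274 genes with over 90% of their exon bases shared, 88.3% were. Of 5904 genes with up to 50% shared, 15.2% were at 0 and 61.6% reached 1 FPKM, so the levels did not fall steadily with the share. In the 357 genes with over 50% and up to 90% shared, the class that holds *Itgam*, 35.3% were at 0 and 27.2% reached 1 FPKM, against 42.4% of the genes without shared bases. The classes also differ in the kinds of genes they hold, and the part of the counting in these shares was not tested.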
